A study of Arabidopsis thaliana with 9 samples.

Results

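The transcripts of cytochrome P450 genes were followed in Arabidopsis rosette leaves (Arabidopsis thaliana, Col-0) with ATH1 arrays from Affymetrix, on which several short probes, together called a probe set, report on a gene. The members were the probe sets to which the probe annotation gave a single gene symbol of the form CYP, family number, subfamily letter and gene number. That rule used no measured value and leaves out the cyclophilins, which share the prefix. It found 22 probe sets for 22 genes among 22746 tested, and 18 of the 22 belonged to the subfamily CYP71B. The TAIR10.1 reference holds 225 genes with such a symbol, and the P450 genes without a singly named probe set were not analysed here.

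There were 3 groups of 3 arrays, and the RNA of each array was pooled from 5 plants that were 5 weeks old. Wild type and bio4-1 plants were watered with water, and the third group was bio4-1 watered with 200 µM D-biotin. The mutant line bio4-1 carries 1 T-DNA insertion allele, in the 5' UTR of BIO4, whose product takes part in making biotin, a cofactor that carboxylases need. No wild type plant watered with biotin was among the samples, so a response of any plant to biotin watering cannot be told apart from one of the mutant. The level of BIO4 was not analysed here. Among the probe sets with a single gene symbol in the annotation used, none carried the symbol BIO4 or matched its locus, AT5G57600. Probe sets with several symbols or none were not searched. Of the 13 leaf, root and flower markers listed, RCA, the Rubisco activase gene of green leaf cells, was the 1 measured, at a log2 value of 13.77 to 13.86 on all arrays; the root and flower markers were not analysed here.

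P450 enzymes are haem-containing monooxygenases that insert oxygen into small molecules, mostly with electrons passed on by a reductase in the endoplasmic reticulum. Plants hold many of them, and they act in the synthesis of hormones, sterols, pigments, cutin, lignin precursors and defence compounds. The CYP71B subfamily includes PAD3, which closes the synthesis of the phytoalexin camalexin, but most of its members have no assigned substrate. Leaf P450 transcripts are known to respond to pathogens, wounding and hormones.

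The values were log2 expression summaries, on which a difference of 1 is a 2-fold change. The arrays numbered 1 stood apart from the other 6 in every group. Their correlation with arrays 2 and 3 across all probe sets was 0.95 to 0.972, against 0.987 to 0.997 among arrays 2 and 3. The 3' minus 5' difference of the actin control, a sign of RNA quality and labelling, was 3.67 to 4.13 on the arrays numbered 1 and 2.27 to 2.76 on the others. For GAPDH it was 1.55 to 2.61 and 0.58 to 0.98. For ubiquitin the arrays were not separated, at 1.52 to 1.73 and 1.48 to 1.72. The part of RNA quality in the results below was not tested. Values are given over the 9 arrays and, beside them, over arrays 2 and 3 alone. Bulk leaf RNA cannot tell fewer cells of a type from less RNA per cell.

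On all 9 arrays, weighted alike, none of the 22 P450 probe sets passed a limma adjusted p of 0.05 in any comparison. In all, 0.0308% of the probe sets tested passed between bio4-1 and wild type, 0% between biotin-watered and water-grown bio4-1, and 0.0044% between biotin-watered bio4-1 and wild type. At an unadjusted p under 0.05 there were 2, 1 and 0 P450 probe sets, against 7.06%, 4.54% and 2.48% of all probe sets. On arrays 2 and 3, 2, 3 and 4 P450 probe sets passed, or 9.09%, 13.6% and 18.2% of the members, beside 3.97%, 3.35% and 5.14% of all probe sets. Both of the first comparison rose, where 2.38% of all probe sets were called higher and 1.6% lower. All 3 of the second fell (1.48% higher and 1.86% lower over all), and of the 4 of the third 1 rose and 3 fell (2.66% and 2.48%). With each of these arrays centred on its median, 571 probe sets of the whole array were higher and 584 lower in the first comparison, against 541 and 363 without centring. In the second they were 617 and 452, against 337 and 424. A fit on 9 arrays with a term for the arrays numbered 1 also called no P450 probe set, with 0.242%, 0.0572% and 0.0044% of all probe sets called. A fit on 9 arrays that gave less weight to noisier arrays called 2, 1 and 4, beside 4.3%, 3.5% and 13.1% of all probe sets. In wild type and in biotin-watered bio4-1 its weight lay mostly on array 2. The calls on arrays 2 and 3 concerned 6 genes, CYP71B23, CYP71B24, CYP71B26, CYP71B28, CYP71B36 and CYP78A9. None of the 9 calls held in every case when 1 of the 6 arrays was left out. The calls of the whole array dropped as well in those fits, to between 15 and 244 probe sets in the first comparison, 0 and 137 in the second and 2 and 490 in the third, from 904, 761 and 1169.

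**Figure D1:**
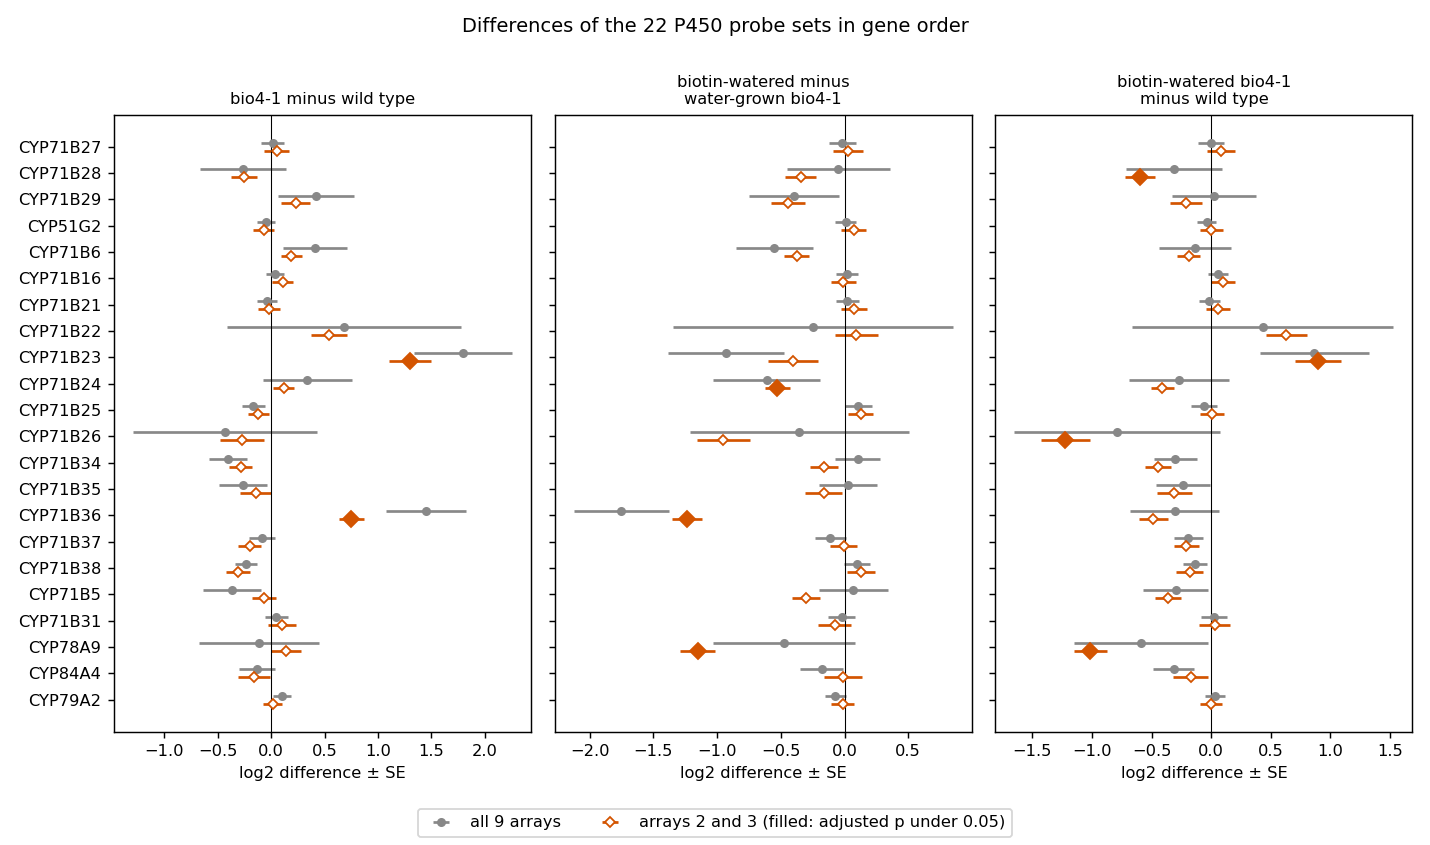
Log2 difference ± SE of each of the 22 P450 probe sets in the 3 comparisons, in gene order from chromosome 1 to 5, on all 9 arrays (grey circles) and on arrays 2 and 3 (diamonds, filled at an adjusted p under 0.05). CYP71B23 and CYP71B36 lie furthest to the right in bio4-1 minus wild type, at 1.80 and 1.45 on 9 arrays, and CYP71B36 furthest to the left, at −1.75, when biotin was given.

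The first comparison asked which P450 transcripts differed between bio4-1 and wild type leaves, both watered with water. CYP71B23 and CYP71B36 were the only members that differed by at least 1 on the log2 scale, and both were higher in every bio4-1 array than in any wild type array. CYP71B34 was lower in every bio4-1 array than in any wild type array, by a smaller step. These 3 of 22 were all of the members whose groups did not overlap (13.6%), and 13.1% of all probe sets did not overlap. The median difference of the 22 was −0.04, and that of all probe sets −0.03; 10 members lay above 0 and 12 below. On arrays 2 and 3 alone, 7 members were higher on both bio4-1 arrays and 5 lower, 12 in all, beside 22.8%, 24.2% and 47% of all probe sets.

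CYP71B23, encoded at AT3G26210, has no assigned substrate. Its log2 value was 7.05, 7.08 and 6.46 on wild type arrays 1, 2 and 3, and 9.85, 7.99 and 8.15 on those of bio4-1. On the biotin-watered arrays it was 7.86, 7.55 and 7.78. The biotin-watered arrays thus lay between the other groups, above all of wild type and below all of bio4-1, and bio4-1 array 1 was the highest of the 9. The wild type mean was 6.86 ± 0.35 (SD, n = 3) and that of bio4-1 was 8.66 ± 1.03 (SD, n = 3). Over 9 arrays they differed by 1.80 ± 0.46 (SE; limma adjusted p = 0.389). It rose by 1.30 ± 0.20 (SE; limma adjusted p = 0.0173) on arrays 2 and 3, and the difference between the arrays numbered 1 was 2.79. Leaving out any 1 of these 6 arrays ended the call, with adjusted p from 0.0543 to 0.225 and differences from 0.99 to 1.61. CYP71B23 is one of the genes next to each other in the CYP71B run on chromosome 3, between CYP71B22 and CYP71B3.

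CYP71B36, at AT3G26320 in the same run, also has no assigned substrate. It was at 4.28, 5.25 and 5.19 on wild type arrays 1, 2 and 3 and at 7.11, 5.82 and 6.11 on those of bio4-1. With biotin it was at 4.33, 4.70 and 4.76. The biotin-watered arrays 2 and 3 lay below those of wild type, and array 1 of both groups was lower still. The difference between bio4-1 and wild type was 1.45 ± 0.37 (SE; limma adjusted p = 0.394) on 9 arrays. It rose by 0.75 ± 0.12 (SE; limma adjusted p = 0.0201) on arrays 2 and 3, and between the arrays numbered 1 it differed by 2.83. The call on arrays 2 and 3 was lost without any 1 of the 6, with adjusted p from 0.0682 to 0.185, while the difference lay between 0.61 and 0.90.

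CYP71B34 (AT3G26300) was at 8.14, 8.08 and 7.88 in wild type and at 7.50, 7.64 and 7.75 in bio4-1. Every mutant array was below every wild type array, yet the step of −0.40 ± 0.18 (SE) did not pass (limma adjusted p = 0.709, and 0.227 on arrays 2 and 3). Its biotin-watered arrays were at 8.13, 7.49 and 7.57, array 1 among the wild type values and the others near those of bio4-1. CYP71B5 (AT3G53280), near the far end of chromosome 3, was at 8.02, 7.39 and 7.37 in wild type and at 7.04, 7.25 and 7.38 in bio4-1. Its difference of −0.37 ± 0.27 (SE; limma adjusted p = 0.884) came mainly from the arrays numbered 1, which differed by −0.97, against −0.07 on arrays 2 and 3.

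CYP71B6 (AT2G24180) is the member with a known place in indole metabolism, where it oxidises indole-3-acetonitrile toward indole-3-carboxylic acid, next to the camalexin pathway. It was at 8.58, 8.25 and 8.16 in wild type, 9.44, 8.35 and 8.44 in bio4-1, and 8.55, 7.99 and 8.04 with biotin. Within each array number the bio4-1 array was the highest of the 3, by a wide margin on the arrays numbered 1 and a narrow one on the others. The difference between bio4-1 and wild type was 0.41 ± 0.30 (SE; limma adjusted p = 0.884), with 0.19 on arrays 2 and 3 (0.366). Between biotin-watered and water-grown bio4-1 it was −0.55 ± 0.30 (SE; limma adjusted p = 1), with −0.38 on arrays 2 and 3 (0.0911).

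**Figure D2:**
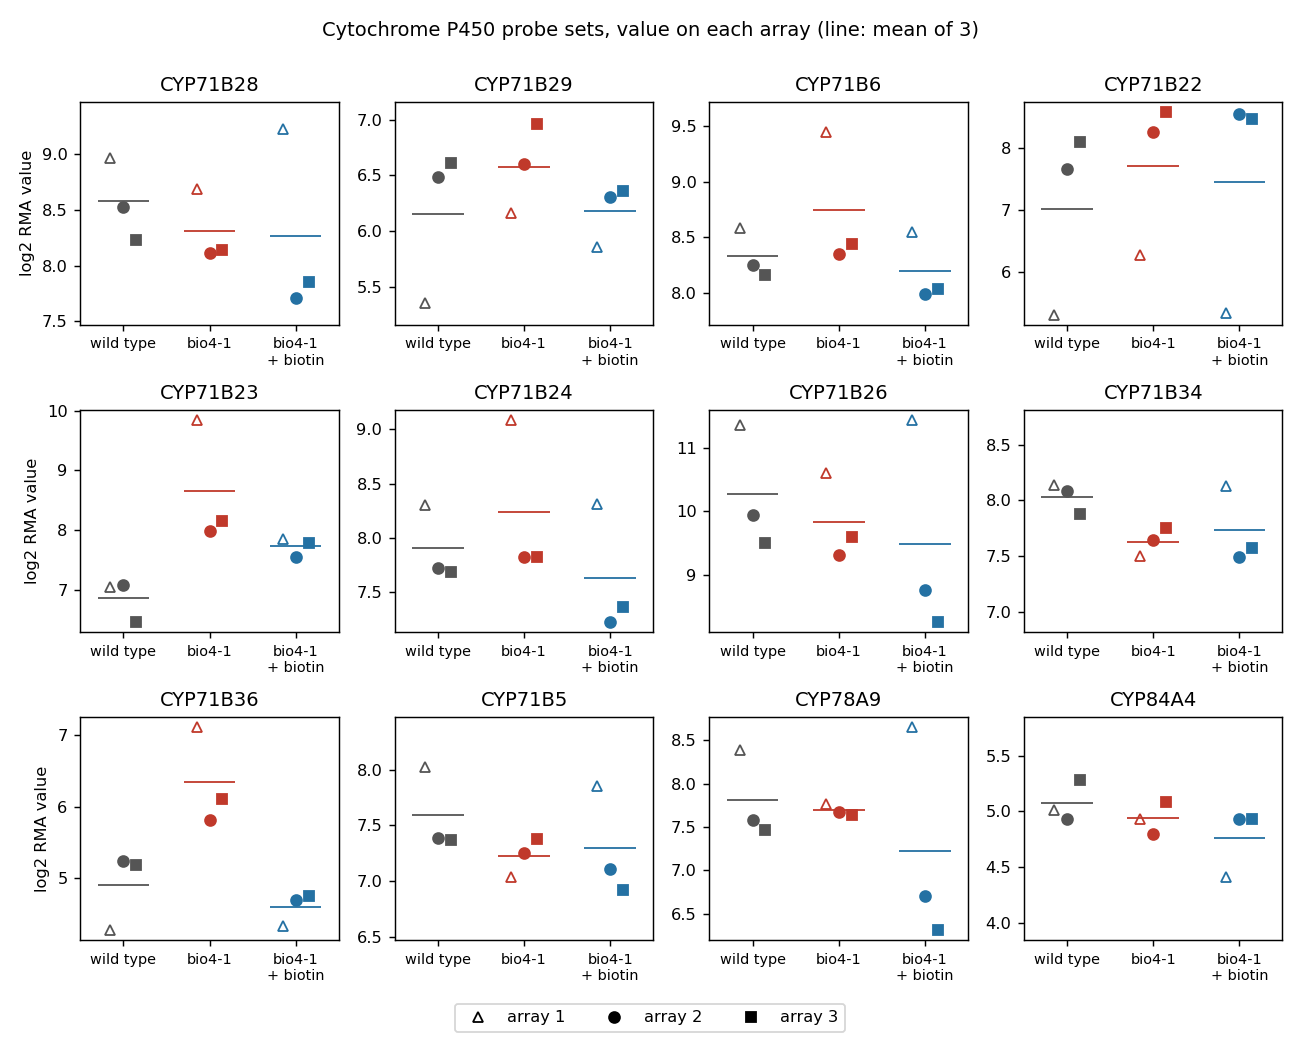
Log2 value on each array for the 12 P450 genes with the largest differences or a call, by group, with a triangle for array 1, a circle for array 2, a square for array 3 and a line at the mean of 3. The vertical axes differ between panels and do not start at 0. CYP71B23 and CYP71B36 are highest in all 3 bio4-1 arrays, while CYP71B26 and CYP78A9 are low on biotin-watered arrays 2 and 3 and high on biotin-watered array 1.

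The second comparison asked how the P450 transcripts of bio4-1 differed when the plants were watered with biotin. CYP71B36 was the member with the largest difference and was lower in every biotin-watered array than in any water-grown bio4-1 array. CYP71B23 was the other member whose arrays did not overlap, also lower. These 2 of 22 (9.09%) compare with 9.03% of all probe sets. On arrays 2 and 3, CYP71B36, CYP71B24 and CYP78A9, a gene of organ growth, fell. The median difference of the members on 9 arrays was −0.06, beside 0.02 for all probe sets, and 14 members were below 0. On arrays 2 and 3, 1 member was higher on both biotin-watered arrays and 10 were lower, 11 in all, beside 22.4%, 22% and 44.3% of all probe sets. This comparison and the first share the bio4-1 arrays, so a high bio4-1 value enters both.

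CYP71B36 had a mean of 6.35 ± 0.68 (SD, n = 3) in water-grown and 4.60 ± 0.23 (SD, n = 3) in biotin-watered bio4-1. The difference was −1.75 ± 0.37 (SE; limma adjusted p = 0.628) on 9 arrays and −1.24 ± 0.12 (SE; limma adjusted p = 0.00551) on arrays 2 and 3. Between the arrays numbered 1 it was −2.78. No other member had a lower adjusted p in these fits. It was 0.045 without wild type array 2 or 3, and the call was lost without either bio4-1 or either biotin-watered array, with adjusted p of up to 0.12 and differences between −1.38 and −1.09. Where an arm is left with 1 array, that array is taken to vary like the other groups. CYP71B23 differed by −0.93 ± 0.46 (SE; limma adjusted p = 1), with −0.40 on arrays 2 and 3 (0.36) and −1.99 between the arrays numbered 1. With 1 of the 9 arrays left out it ranged from −1.27 to −0.34, the last without bio4-1 array 1.

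CYP78A9 (AT3G61880) belongs to a P450 family that promotes organ growth, and its overexpression is known to enlarge fruits. It was at 8.39, 7.58 and 7.46 in wild type, 7.77, 7.67 and 7.64 in bio4-1, and 8.65, 6.70 and 6.31 with biotin. Biotin-watered arrays 2 and 3 were the lowest 2 of the 9, whereas biotin-watered array 1 was the highest. It fell by 1.15 ± 0.14 (SE; limma adjusted p = 0.0114) with biotin on arrays 2 and 3, and the difference between the arrays numbered 1 was 0.88, the other way. On 9 arrays the difference was −0.47 ± 0.56 (SE; limma adjusted p = 1). Without biotin-watered array 2 the adjusted p on arrays 2 and 3 was 0.0416. The call was lost without any other of the 6, with differences between −1.35 and −0.96 over these fits.

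CYP71B24 (AT3G26230), of the chromosome 3 run and with no assigned substrate, was at 8.30, 7.72 and 7.68 in wild type and at 9.09, 7.82 and 7.82 in bio4-1. With biotin it was at 8.31, 7.22 and 7.36. Array 1 was the highest of its group in each case, and within each array number biotin-watered bio4-1 was below water-grown bio4-1. It fell by 0.53 ± 0.10 (SE; limma adjusted p = 0.0333) on arrays 2 and 3. With each array centred on its median the adjusted p there was 0.0609, and with quantile normalization it was 0.0537. On 9 arrays the difference was −0.61 ± 0.42 (SE; limma adjusted p = 1). Its call also was lost without any 1 of the 6 arrays, with differences between −0.60 and −0.46.

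CYP71B29 (AT1G13100) was at 5.36, 6.49 and 6.61 in wild type, 6.16, 6.60 and 6.96 in bio4-1, and 5.86, 6.31 and 6.36 with biotin. It was lower with biotin than in water-grown bio4-1 for every array number, with differences of −0.30, −0.29 and −0.60. The difference of −0.40 ± 0.35 (SE) did not pass (limma adjusted p = 1, and 0.141 on arrays 2 and 3). Between bio4-1 and wild type it was 0.42 ± 0.35 (SE; limma adjusted p = 0.901).

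The third comparison set biotin-watered bio4-1 against wild type, 2 groups that differ in genotype as well as in watering. On 9 arrays the member with the largest difference was CYP71B23, which was higher in every biotin-watered array than in any wild type array. CYP71B37 was lower in every biotin-watered array, by a small step at a low level. These 2 members (9.09%) compare with 5.92% of all probe sets. On arrays 2 and 3 CYP71B23 rose and CYP71B26, CYP71B28 and CYP78A9 fell. There, 12 members were lower on both biotin-watered arrays than on both wild type arrays and 3 were higher, 15 in all, beside 20.4%, 19.6% and 40.1% of all probe sets. Their median difference on arrays 2 and 3 was −0.18, beside −0.005 for all probe sets, and on 9 arrays −0.14 beside −0.0036.

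CYP71B23 was 0.87 ± 0.46 (SE; limma adjusted p = 1) higher than in wild type on 9 arrays. It rose by 0.90 ± 0.20 (SE; limma adjusted p = 0.0466) on arrays 2 and 3, and the difference was 0.81 between the arrays numbered 1. Without wild type array 3 the value on arrays 2 and 3 was 0.59. Its call was lost without any 1 of the 6 arrays, with adjusted p from 0.0776 to 0.278. CYP71B36 was at −0.31 ± 0.37 (SE; limma adjusted p = 1), and at −0.48 on arrays 2 and 3 (0.0698).

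CYP71B26 (AT3G26290), of the chromosome 3 run, was at 11.37, 9.94 and 9.51 in wild type, 10.61, 9.31 and 9.60 in bio4-1, and 11.45, 8.76 and 8.25 with biotin. Biotin-watered bio4-1 arrays 2 and 3 formed the lowest group, but its array 1 was the highest of all 9. It fell by 1.22 ± 0.21 (SE; limma adjusted p = 0.0186) against wild type on arrays 2 and 3, and the difference on 9 arrays was −0.79 ± 0.86 (SE; limma adjusted p = 1). Against water-grown bio4-1 it differed by −0.95 on arrays 2 and 3 (limma adjusted p = 0.0575) and by −0.35 on 9 arrays (1). With the array number as a block on arrays 2 and 3 it fell by 0.95 ± 0.19 (SE; limma adjusted p = 0.0244). Median centring, quantile normalization, the filter on dim probe sets and a variance trend also called it there, with adjusted p from 0.036 to 0.0427. The call against wild type was lost without any 1 of the 6 arrays, with adjusted p from 0.0567 to 0.191 and differences between −1.48 and −0.97.

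CYP71B28 (AT1G13090), next to CYP71B29 on chromosome 1, was at 8.97, 8.53 and 8.23 in wild type, 8.69, 8.11 and 8.14 in bio4-1, and 9.23, 7.71 and 7.85 with biotin. As for CYP71B26 and CYP78A9, biotin-watered arrays 2 and 3 were the lowest of the 9 and biotin-watered array 1 the highest. It fell by 0.60 ± 0.12 (SE; limma adjusted p = 0.0388) against wild type on arrays 2 and 3, while the arrays numbered 1 differed by 0.26. On 9 arrays the difference was −0.31 ± 0.41 (SE; limma adjusted p = 1). The call was lost without any 1 of the 6 arrays, with adjusted p from 0.0794 to 0.201 and differences between −0.75 and −0.45.

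CYP78A9 fell by 1.01 ± 0.14 (SE; limma adjusted p = 0.00875) against wild type on arrays 2 and 3. On 9 arrays the difference was −0.59 ± 0.56 (SE; limma adjusted p = 1), and the arrays numbered 1 differed by 0.26. Between bio4-1 and wild type, both watered with water, CYP78A9 differed by 0.14 on arrays 2 and 3 (limma adjusted p = 0.678). The adjusted p of its difference from wild type was 0.0307 without biotin-watered array 2. The call was lost without any other of the 6, with differences between −1.21 and −0.82 over these fits.

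CYP84A4 (AT5G04330) acts in the synthesis of arabidopyrones, phenylpropanoid-derived pyrones, and is a relative of ferulate 5-hydroxylase of the lignin pathway. It was at 5.01, 4.93 and 5.28 in wild type, 4.93, 4.80 and 5.08 in bio4-1, and 4.41, 4.93 and 4.93 with biotin. The groups overlapped, and biotin-watered array 1 was the lowest. Its difference between biotin-watered bio4-1 and wild type was −0.31 ± 0.17 (SE; limma adjusted p = 1).

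The arrays numbered 1 differed from the others for some P450 genes in all 3 groups. With a term for these arrays in the limma fit, 6 of the 22 members differed between arrays 1 and arrays 2 and 3, beside 23.9% of all probe sets. CYP71B22 (AT3G26200), with no assigned substrate, was at 5.32, 7.66 and 8.10 in wild type, 6.28, 8.26 and 8.58 in bio4-1, and 5.35, 8.55 and 8.47 with biotin. Its array 1 was the lowest of each group, at −2.56, −2.14 and −3.16 from the mean of arrays 2 and 3. The step fitted over the 3 groups was −2.62 ± 0.19 (SE; limma adjusted p = 0.000516). Between the groups CYP71B22 differed by 0.68 ± 1.1 (SE) in bio4-1 minus wild type, −0.25 with biotin and 0.43 between biotin-watered bio4-1 and wild type, none of which passed. These differences were 0.54, 0.09 and 0.63 on arrays 2 and 3 (limma adjusted p = 0.146, 0.85 and 0.0937). In the last of these it rose by 0.63 ± 0.14 (SE; limma adjusted p = 0.0358) with the array number as a block, and by 0.65 with median centring (0.0492).

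The other member lower on the arrays numbered 1 was CYP71B29, at −0.76 ± 0.15 (SE; limma adjusted p = 0.0104). The 4 that were higher there were CYP71B26, by 1.92 ± 0.31, CYP71B24, by 0.96 ± 0.12, CYP71B28, by 0.86 ± 0.17, and CYP71B6, by 0.65 ± 0.12 (SE; limma adjusted p = 0.0059, 0.00261, 0.0118 and 0.00985). For CYP71B23 and CYP71B36 the term did not pass (limma adjusted p = 0.106 and 0.912). For CYP71B36, array 1 minus the mean of arrays 2 and 3 was −0.94 in wild type, 1.15 in bio4-1 and −0.40 with biotin. For CYP71B23 it was 0.28, 1.78 and 0.19. The actin 3' minus 5' difference of these arrays was 3.67 in wild type, 3.75 in bio4-1 and 4.13 with biotin.

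**Figure D3:**
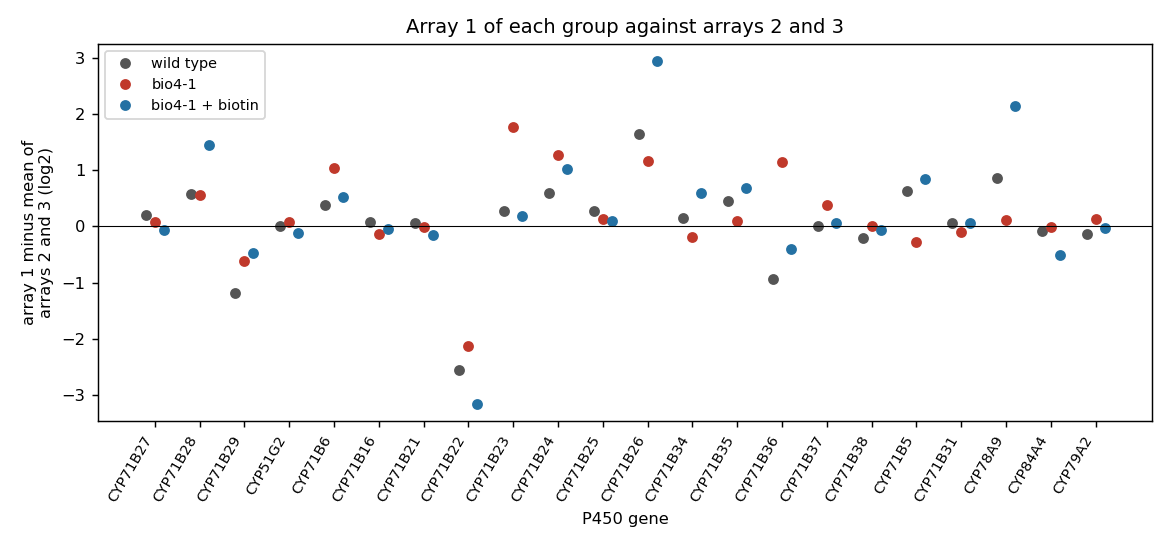
Log2 value on array 1 minus the mean of arrays 2 and 3, for each P450 gene and group, in gene order. CYP71B22 is below −2 in all 3 groups, CYP71B26 is above 1 in all 3, and CYP71B23 and CYP71B36 have their highest point in bio4-1.

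Of the 22 members, 11 lie in a run on chromosome 3 from CYP71B16 to CYP71B37. The reference places 24 protein-coding genes and pseudogenes there, 18 of them with a P450 symbol. CYP71B34, CYP71B35, CYP71B36 and CYP71B37 are direct neighbours, and between bio4-1 and wild type on 9 arrays they differed by −0.40, −0.26, 1.45 and −0.08. CYP71B21, CYP71B22, CYP71B23 are also direct neighbours, with differences of −0.04, 0.68 and 1.80. With biotin against water-grown bio4-1 the first 4 differed by 0.10, 0.03, −1.75 and −0.11 and the other 3 by 0.02, −0.25 and −0.93. Large and small differences thus stood side by side in the run. Members of such a tandem array are similar in sequence, and hybridisation of one gene's transcript to the probes of another was not tested. All 22 probe set names carry the plain suffix without a mark for shared probes.

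**Figure D4:**
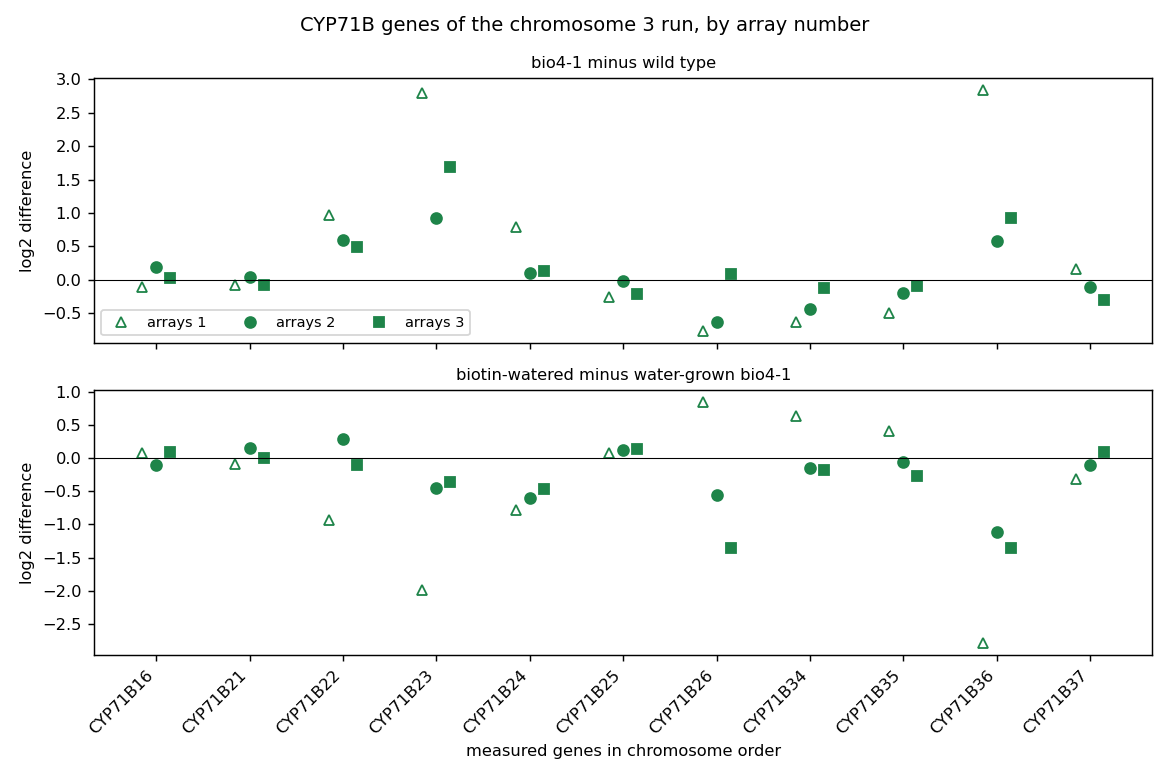
Log2 difference between arrays of the same number for the 11 measured CYP71B genes of the chromosome 3 run, in gene order, for bio4-1 minus wild type (top) and biotin-watered minus water-grown bio4-1 (bottom). CYP71B23 and CYP71B36 are above 0 for all 3 array numbers at the top, with 2.79 and 2.83 on the arrays numbered 1, and below 0 for all 3 at the bottom.

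CYP71B35 (AT3G26310), the neighbour of CYP71B36, was at 7.25, 6.92 and 6.67 in wild type, 6.75, 6.72 and 6.58 in bio4-1, and 7.16, 6.66 and 6.32 with biotin, and the groups overlapped. The remaining 9 members lay under 4 on every array, from 2.72 to 3.75, and each spanned 0.14 to 0.48 over the 9 arrays. Their differences lay between −0.23 and 0.11 in all comparisons on 9 arrays, and none passed (lowest limma adjusted p = 0.709, and 0.195 on arrays 2 and 3). The deposited values come without a detection call, so whether these transcripts were above background is not known here.

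These 9 include CYP79A2, CYP71B31 and CYP51G2, which stood on the list of P450 genes by role. CYP79A2 turns phenylalanine into its aldoxime, the first step to benzylglucosinolate, and was at 3.19 to 3.48 over the 9 arrays. CYP71B31 oxidises linalool in flowers and was at 2.72 to 3.05. CYP51G2 is a relative of the sterol demethylase CYP51G1 and was at 3.67 on all 3 wild type arrays, and at 3.52 to 3.67 on the others. Their differences between bio4-1 and wild type were 0.11, 0.05 and −0.05, with biotin −0.07, −0.02 and 0.01, and between biotin-watered bio4-1 and wild type 0.03, 0.03 and −0.04. CYP71B37, at 3.18, 3.10 and 3.23 in wild type and 3.02, 2.89 and 3.03 with biotin, did not overlap between these groups, at a difference of −0.19 ± 0.12 (SE; limma adjusted p = 1). In bio4-1 it was at 3.34, 2.99 and 2.94. The other 5 were CYP71B16, CYP71B21, CYP71B25, CYP71B27 and CYP71B38.

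The pathways in which P450 enzymes act were covered thinly. Of 93 P450 genes listed by role, 6 were measured under their own name, and those of brassinosteroid, gibberellin, abscisic acid, jasmonate, cytokinin, carotenoid and cutin metabolism were not analysed here. Of 76 partner genes listed, 6 were measured, and none passed on 9 arrays. HCT, which makes the shikimate esters on which a lignin P450 acts, was at 9.25, 10.05 and 10.02 in wild type, 10.45, 9.33 and 9.40 in bio4-1, and 9.35, 9.29 and 9.51 with biotin. It fell by 0.67 ± 0.11 (SE; limma adjusted p = 0.0211) on arrays 2 and 3 in bio4-1 against wild type, while bio4-1 array 1 was the highest of the 9. Against wild type it also fell by 0.63 ± 0.11 (SE; limma adjusted p = 0.0189) on arrays 2 and 3 with biotin, and on 9 arrays the differences were −0.05 and −0.39 (0.998 and 1). In bio4-1 against wild type IGPS, of tryptophan synthesis upstream of camalexin, differed by 0.49 ± 0.27 (SE; limma adjusted p = 0.809), and by 0.03 on arrays 2 and 3. The glucosinolate genes UGT74B1, BCAT4 and GSTU20 differed there by 0.0009, −0.11 and −0.01 on 9 arrays (limma adjusted p = 1, 0.964 and 0.999). LYCB, a carotenoid cyclase, differed by 0.11 (0.906). Between biotin-watered and water-grown bio4-1, IGPS, UGT74B1, HCT and LYCB differed by −0.50, −0.43, −0.34 and −0.13 on 9 arrays. BCAT4 and GSTU20 differed by 0.30 and 0.18. Against wild type, biotin-watered bio4-1 differed by −0.43 for UGT74B1, and by −0.60 ± 0.17 (SE; limma adjusted p = 0.106) on arrays 2 and 3. BCAT4, GSTU20, IGPS and LYCB differed by 0.19, 0.17, −0.01 and −0.02 on 9 arrays.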

How the data were processed

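Leaf RNA of 3 groups of 3 samples, labelled from 3 µg of total RNA, was measured on 9 ATH1 arrays. The authors deposited log2 values made with RMA, per the submitters' processing notes, a method that combines each set's probes after normalization between arrays. Version and settings: not given in the sources used here. Tests left out 64 control probe sets. Of those tested, 13513 carried 1 gene name in the annotation, 503 more than 1 and 8730 none. All 22 members matched a TAIR10.1 locus, used for names and gene order only. Groups were compared with limma 3.58.1 in R 4.3.3, in 1 fit without a block, with Benjamini-Hochberg adjustment over all 22746 probe sets within each comparison. Nothing in the labels says that the 3 pools of a group were grown apart, so a p-value here reflects only how far these pools vary, which may be technical, and the number of arrays limits the precision. Same-numbered arrays deviated together (r from 0.269 to 0.834) in both comparisons with biotin-watered plants, but between wild type and bio4-1 r was −0.03 for number 2. Arrays 2 and 3 also correlated across numbers, at 0.652 and 0.655 between wild type and biotin-watered plants and at 0.172 and 0.365 between the bio4-1 groups, whereas the arrays numbered 1 correlated negatively with those numbered 2 and 3 of the other group in both comparisons. Each deviation was taken from the mean of the 3 arrays of a group. An array 1 that stands apart therefore moves arrays 2 and 3 of its group together. These r cannot tell a pairing by number from that shared step. The arrays themselves were the only source of a pairing, and the replicate block was an alternative. The fit was run on simulated data with independent noise. That noise held no shared step of the arrays numbered 1, so the run says nothing on the fit under such a step. Other alternatives were arrays 2 and 3 alone, a term for the arrays numbered 1, other normalizations, a filter at a mean log2 of 6, a variance trend, 2-group fits, array weights, 1 probe set a gene, an adjusted p of 0.1 and leaving out each array. The alternatives within arrays 2 and 3 were added after the data were seen. The members, lists and alternatives were chosen with earlier results of these data known. Genes given with every array are those called in either fit, the 8 largest differences of each comparison, and the 5 largest in each direction whose arrays do not overlap; CYP71B35 was added after its values were seen. Tables were built with pandas 2.3.3 under Python 3.11.15, and plots with matplotlib 3.10.9.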

Additional observations from a re-analysis of the deposited data

How the results depend on the processing

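No P450 probe set was called on 9 arrays (0 in each comparison) under the replicate block, the term for the arrays numbered 1, median centring, quantile normalization, the dim filter, the variance trend, 2-group fits, 1 probe set a gene, an adjusted p of 0.1, or with any 1 of the 9 arrays left out. The replicate block on arrays 2 and 3 called 2, 4 and 5 members, beside 6.4%, 5.76% and 6.67% of all probe sets, adding CYP71B26 to the second comparison (bio4-1 with biotin against without) and CYP71B22 to the third (bio4-1 with biotin against wild type). CYP71B26 was also called there under median centring, quantile normalization, the dim filter and the variance trend, and CYP71B22 under median centring. Arrays 2 and 3 alone called 2, 3 and 4 members, beside 3.97%, 3.35% and 5.14% of all probe sets. On these arrays 12, 11 and 15 members did not overlap, beside 47%, 44.3% and 40.1% of all probe sets. On 9 arrays, array weights called 2, 1 and 4, beside 4.3%, 3.5% and 13.1% of all probe sets. The 2 were CYP71B23 and CYP71B36 (limma adjusted p = 0.0308 and 0.041), and the 1 was CYP71B36 (0.0123). The 4 were CYP71B26, CYP71B28, CYP71B34 and CYP78A9. The weights were 0.191 to 0.248 for the arrays numbered 1. Arrays 2 and 3 had weights of 4.762 and 0.969 in wild type, 1.94 and 1.861 in bio4-1, and 6.769 and 0.831 with biotin. The third comparison under array weights thus rested mostly on array 2 of each group. The dim filter on arrays 2 and 3, which removed CYP71B36, called 1, 3 and 5, beside 6.59%, 6.45% and 9.64% of the probe sets kept, with CYP71B26 added to the second and CYP71B24 to the third. With 1 of these 6 arrays left out, 0 to 0, 0 to 1 and 0 to 1 members were called, beside 0.0659% to 1.07%, 0% to 0.602% and 0.00879% to 2.15% of all probe sets.

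The members' median was −0.11, −0.35 and −0.27 under the dim filter, which kept 11 members. For all probe sets kept by the filter the median was −0.023, −0.002 and −0.0257. The filter did not change the differences of the 11, only which members were counted. With all members, the median in the first comparison was 0.0253 with array weights. In the second it was −0.12 on arrays 2 and 3, −0.0061 with median centring and −0.115 to −0.0156 with 1 array left out. In the third it was −0.18 on arrays 2 and 3 and −0.136 to −0.0713 with 1 array left out.

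Signs turned, always for differences that did not pass. The lists here and in the next paragraph leave out CYP71B16, CYP71B21, CYP71B25, CYP71B27 and CYP71B38. Among these, too, signs turned on arrays 2 and 3. In the first comparison CYP78A9 was 0.14 on arrays 2 and 3 and 0.0747 with array weights. In the second, arrays 2 and 3 gave 0.0928 for CYP71B22, −0.16 for CYP71B34, −0.30 for CYP71B5 and −0.16 for CYP71B35, and array weights gave 0.18, −0.16, −0.19 and −0.0252 for these and 0.0551 for CYP71B31. Median centring gave 0.0052 for CYP71B28 and 0.0315 for CYP71B31, and quantile normalization −0.0334 for CYP51G2. In the third, CYP71B29 was −0.21 on arrays 2 and 3 and −0.16 with array weights. The cause was not tested.

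With 1 of the 9 arrays left out, the first comparison ranged from −0.17 to 1.39 for CYP71B22, −0.0836 to 0.55 for CYP71B24, −0.82 to 0.11 for CYP71B26 and −0.29 to 0.18 for CYP78A9. The second ranged from −0.0388 to 0.0474 for CYP51G2, −0.96 to 0.80 for CYP71B22, −1.34 to 0.26 for CYP71B26, −0.53 to 0.23 for CYP71B28, −0.0956 to 0.0698 for CYP71B31, −0.0987 to 0.22 for CYP71B34, −0.19 to 0.0145 for CYP71B37, −0.20 to 0.23 for CYP71B35 and −0.21 to 0.26 for CYP71B5. The third ranged from −0.42 to 1.49 for CYP71B22, −0.37 to 0.25 for CYP71B29, −0.0463 to 0.12 for CYP71B31 and −0.0113 to 0.0557 for CYP79A2. Ranges that kept their sign included −0.95 to −0.19 for CYP71B24, −1.27 to −0.34 for CYP71B23 and −1.19 to −0.0204 for CYP78A9 in the second comparison. In the third they included −1.30 to −0.13 for CYP78A9, −1.77 to −0.17 for CYP71B26 and −0.79 to −0.0346 for CYP71B28. Whether the 9 members under log2 4 lay above background was not tested. For the others, 3 pools a group limit the precision, and the arrays numbered 1 stood apart.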
